A study of Mus musculus with 8 samples.

Results

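The genes described here control or carry iron in mouse liver. They are Hamp and Hamp2 (hepcidin), Tfrc and Tfr2 (transferrin receptors), Slc40a1 (ferroportin), Trf (transferrin), Fth1 (ferritin heavy chain), Hfe, Bmp6 and Hpx (hemopexin). The 10 genes were chosen by symbol, and each was read from the probe set that the platform annotation pairs with that symbol alone. A probe set was found for 9 of the 10, of 19540 genes in all, and each of the 9 had 1 probe set. Trf was not analysed here.

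The study measured total RNA of mouse liver on 8 Affymetrix arrays. Of these 4 were labelled HNF6KO, livers depleted of the homeodomain transcription factor HNF6 (gene Onecut1), and 4 were labelled WT. Both groups are described as male C57B/6 mice aged 12 weeks on normal chow and a normal light and dark schedule, with no further treatment, taken at ZT10, the hour counted from lights on. The sources used here do not say how HNF6 was depleted, in which cells, or what the WT mice carried or received. Nor do they say whether each array came from a separate animal, so the p-values cover the spread among these arrays, which may be technical.

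Iron enters the blood through ferroportin, the only known exporter of iron from mammalian cells. Hepatocytes secrete hepcidin, a peptide hormone that binds ferroportin and triggers its breakdown, so hepcidin keeps iron inside macrophages and enterocytes. Hepcidin transcription answers to iron through BMP ligands of sinusoidal endothelial cells and through HFE and transferrin receptor 2 on hepatocytes, and to inflammation through IL-6 and STAT3. Inside cells the iron regulatory proteins bind iron-responsive elements in messenger RNAs. That binding stabilises the transferrin receptor message and blocks translation of ferritin and ferroportin, and only the first of these effects acts on the amount of messenger RNA.

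The windows from 250 bases before to 50 bases after the transcription start of both hepcidin genes are shown because mouse carries a pair of hepcidin genes and their control regions are nearly alike. They are RefSeq sequence of build GRCm38.p6, minus strand, at chr7:30943980-30944279 for Hamp and chr7:30924132-30924431 for Hamp2. Capitals mark GGCGCC, the core of the known BMP response element of hepcidin, and the STAT motif TTCNNNGAA. Both motifs read the same on either strand, and their matches here do not overlap.
Hamp: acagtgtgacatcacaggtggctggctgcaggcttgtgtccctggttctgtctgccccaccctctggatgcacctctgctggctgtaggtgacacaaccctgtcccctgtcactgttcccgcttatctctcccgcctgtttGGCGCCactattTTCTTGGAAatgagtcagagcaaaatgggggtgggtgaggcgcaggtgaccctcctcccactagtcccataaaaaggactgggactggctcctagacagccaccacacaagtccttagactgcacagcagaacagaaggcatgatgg
Hamp2: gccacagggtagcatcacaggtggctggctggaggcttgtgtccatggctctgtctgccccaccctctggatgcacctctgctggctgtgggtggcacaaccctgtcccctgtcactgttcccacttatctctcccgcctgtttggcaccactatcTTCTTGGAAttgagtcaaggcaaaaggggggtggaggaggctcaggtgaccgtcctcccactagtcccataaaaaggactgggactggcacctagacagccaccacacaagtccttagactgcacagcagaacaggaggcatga
The windows were identical at 276 of 297 aligned bases (92.9%). Hamp has GGCGCC at positions 142 to 147, counted from 1 at the 5′ end of its window, and Hamp2 carries the substitution G145A there, named from Hamp to Hamp2, so its window holds no GGCGCC. The STAT motif carried 0 substitutions and lies at position 154 in Hamp and 157 in Hamp2. Over 32841 windows of 300 bases, 11.9% held GGCGCC and 8.30% held TTCNNNGAA. A match describes these letters only.

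The core of the HNF6 recognition sequence, ATTGAT, was searched on both strands in the 12 windows that 8 of the 10 genes have. It was found in 3 windows of 2 genes, Tfr2 and Hfe, against 7.54% of all windows. A total of 2 Tfr2 windows overlap and share the same match. The stretches that hold the matches are chr5:137570703-137570762 (plus strand) for Tfr2 and chr13:23710822-23710881 (minus strand) for Hfe, both GRCm38.p6, with the motif in capitals. In Hfe it is read as ATCAAT, the motif on the other strand.
Tfr2: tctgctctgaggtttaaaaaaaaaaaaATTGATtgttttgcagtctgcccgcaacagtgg
Hfe: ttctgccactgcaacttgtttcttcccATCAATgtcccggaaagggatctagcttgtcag

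The values are log2 expression as deposited, between 3.69 and 14.1, with array medians of 6.89 to 6.97. Onecut1 was lower on all 4 HNF6KO arrays than on any WT array, at 9.32, 9.05, 8.67 and 8.70 on HNF6KO arrays 1 to 4 against 10.17, 9.87, 10.45 and 10.52 on WT arrays 1 to 4 (limma log2 change -1.32, adjusted p = 0.0273). This call was lost in 5 of 8 fits that left out 1 array (limma, adjusted p = 0.0633 to 0.0954), and within arrays 1 and 2 (0.171). On the leading principal component, which held 38.0% of the variance, arrays 1 and 2 of both groups lay below arrays 3 and 4. HNF6KO arrays 1 to 4 were at -9.96, -5.59, 20.5 and 23.1, and WT arrays 1 to 4 at -17.8, -13.8, 3.74 and -0.186. The gap was narrow between HNF6KO array 2 and WT array 4. Within each pair of arrays both HNF6KO arrays lay above both WT arrays, so this component also orders the groups. Markers of Kupffer cells averaged 8.19 and 7.68 on HNF6KO arrays 1 and 2 and 9.26 and 9.02 on HNF6KO arrays 3 and 4, against 7.63 and 8.46 on WT arrays 1 and 2 and 8.72 and 8.84 on WT arrays 3 and 4. In bulk liver, fewer cells of a type and less RNA per cell cannot be told apart. Hepatocyte markers averaged 13.52 to 13.58 on HNF6KO arrays and 13.49 to 13.51 on WT arrays, so every HNF6KO mean was slightly above every WT mean. Probe sets this bright can understate a change. The labels name no batch, so each comparison below was also fitted with a term that sets the lower-numbered arrays (1 and 2) apart from the higher-numbered ones (3 and 4), called the split.

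None of the 9 measured iron genes passed the test. In limma over all genes, with Benjamini-Hochberg adjustment and a threshold of 0.05, 0 of 9 were called, where 0.399% of all genes were. At an unadjusted p of 0.05, Tfrc (higher) and Tfr2 (lower) passed, 2 of 9 against 9.51% of all genes. The groups overlapped for all 9, where 5.67% of all genes had groups that did not overlap. The median log2 change of the 9 was 0.064, with 7 above 0 and 2 below 0. The median over all genes was -0.015, with 8318 of 19540 above 0. With the split as a term Tfrc alone was called, 1 of 9, where 1.25% of all genes were called and 0.548% were called higher.

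**Figure D1:**
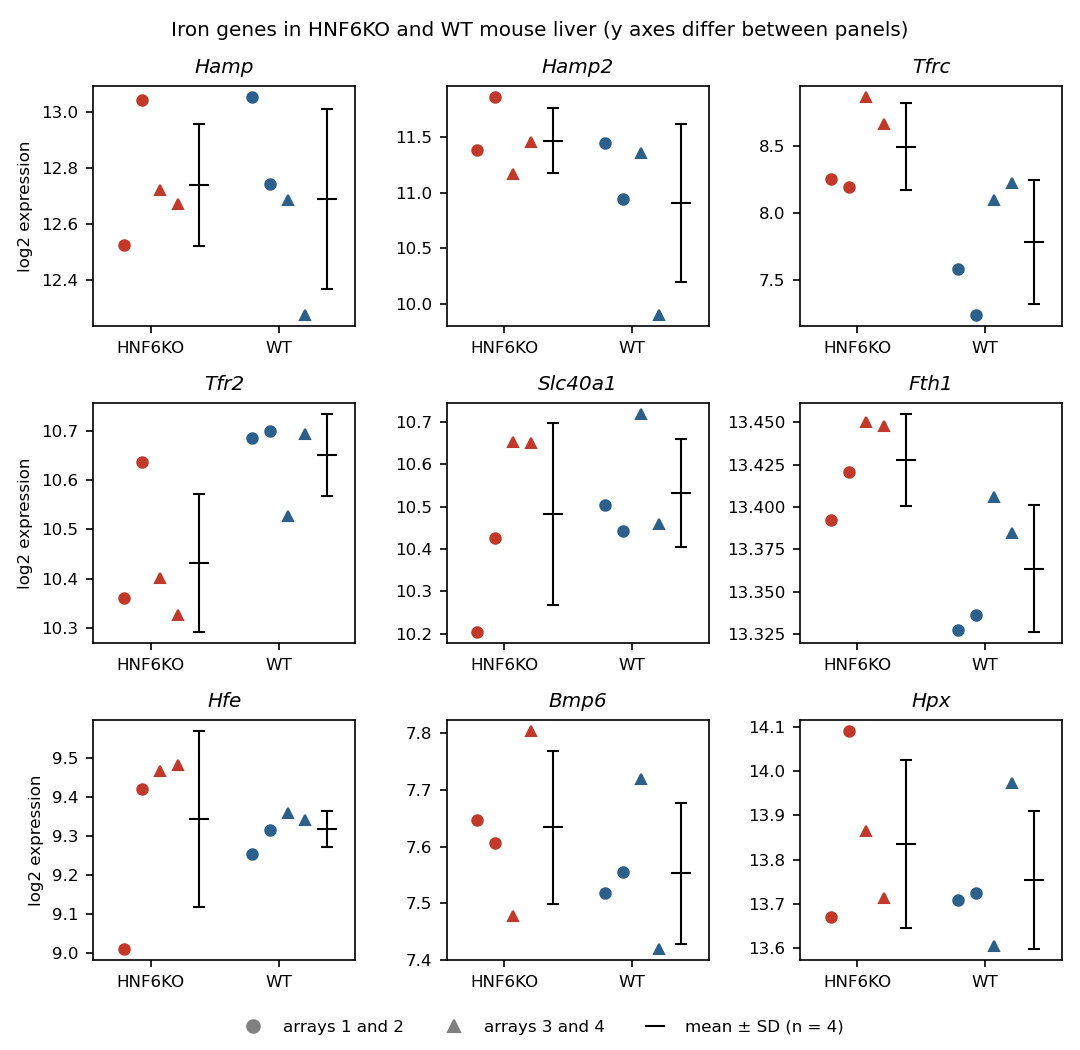
Log2 expression of the 9 measured iron genes on each array, HNF6KO left and WT right, with circles for arrays 1 and 2, triangles for arrays 3 and 4, and the mean ± SD (n = 4) beside each group. The groups overlap in every panel. The overlap is narrow for Tfrc, with HNF6KO arrays from 8.19 to 8.86 and WT arrays from 7.24 to 8.22. It is also narrow for Fth1, with HNF6KO arrays from 13.39 to 13.45 and WT arrays from 13.33 to 13.41.

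Hamp (Entrez 84506), the gene of the iron hormone hepcidin, differed between the groups by less than the spread between arrays. Its log2 values were 12.52, 13.04, 12.72 and 12.67 on HNF6KO arrays 1 to 4, against 13.05, 12.74, 12.68 and 12.27 on WT arrays 1 to 4. The WT arrays held both the highest and the lowest value of the 8. The means were 12.74 ± 0.22 in HNF6KO and 12.69 ± 0.32 in WT (SD, n = 4 each), a log2 change of 0.051 ± 0.16 (SE, limma, adjusted p = 0.965). The 95% interval ran from 0.802-fold to 1.34-fold. The sign was not stable, since the log2 change was -0.11 on the lower-numbered arrays and 0.22 on the higher-numbered ones, and -0.188 when the 2 arrays with the most acute phase transcript, HNF6KO array 2 and WT array 4, were left out together.

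Hamp2 (Entrez 66438), the second hepcidin gene of mouse, varied more. It had 11.38, 11.86, 11.17 and 11.46 on HNF6KO arrays 1 to 4 and 11.44, 10.95, 11.35 and 9.90 on WT arrays 1 to 4. WT array 4 was the lowest, and the other WT arrays lay within or just below the HNF6KO range. The means were 11.47 ± 0.29 in HNF6KO and 10.91 ± 0.71 in WT (SD, n = 4 each), and the log2 change of 0.56 ± 0.31 (SE) did not pass (limma, adjusted p = 0.643). It was 0.22 without WT array 4 and 0.089 when HNF6KO array 2 and WT array 4 were left out together. The 95% interval was wide, from 0.898-fold to 2.41-fold. Because Hamp and Hamp2 are close relatives, either probe set may take up transcript of the other. Hamp2 minus Hamp, a difference of log2 values within an array, was -1.14, -1.18, -1.55 and -1.21 on HNF6KO arrays 1 to 4 and -1.61, -1.79, -1.33 and -2.37 on WT arrays 1 to 4. This difference was given no test, and its ranges overlap between the groups.

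Among all genes, the 5 whose 8 values followed Hamp most closely were Hint1 (Pearson r = 0.969), Adam24 (0.947), Ccdc191 (0.946), Mrpl17 (0.945) and Ktn1 (0.937). These correlations over 8 arrays of both groups are a description, since the 5 were the highest of 19540 and all genes of an array share its hybridisation. Their own log2 changes between HNF6KO and WT lay from -0.0012 to 0.053, and none passed (limma, adjusted p = 0.872 to 0.998).

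The sensors upstream of hepcidin gave small differences. Tfr2 (Entrez 50765), the hepatocyte receptor that reads iron-loaded transferrin, had 10.36, 10.64, 10.40 and 10.33 on HNF6KO arrays 1 to 4 against 10.68, 10.70, 10.53 and 10.69 on WT arrays 1 to 4. Only HNF6KO array 2 reached into the WT range, above WT array 3. The log2 change was -0.22 ± 0.077 (SE), or 0.859-fold with a 95% interval of 0.761 to 0.969, and it did not pass over all genes (limma, adjusted p = 0.384, and 0.195 with the split as a term). Arrays 1 and 2 gave -0.19 and arrays 3 and 4 gave -0.25.

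Hfe (Entrez 15216), the gene mutated in hereditary haemochromatosis and a partner of the transferrin receptors, had 9.01, 9.42, 9.47 and 9.48 on HNF6KO arrays 1 to 4 and 9.25, 9.32, 9.36 and 9.34 on WT arrays 1 to 4. HNF6KO array 1 was the lowest of the 8, and the other HNF6KO arrays were above every WT array. The log2 change over all arrays was 0.027 ± 0.10 (SE, limma, adjusted p = 0.972). Without HNF6KO array 1 it was 0.139 and still did not pass (adjusted p = 0.255).

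Bmp6 (Entrez 12161), the endothelial ligand that drives hepcidin transcription when iron is high, had 7.65, 7.61, 7.48 and 7.80 on HNF6KO arrays 1 to 4 and 7.52, 7.56, 7.72 and 7.42 on WT arrays 1 to 4. The log2 change was 0.081 ± 0.084 (SE, limma, adjusted p = 0.851), with an interval of 0.926-fold to 1.21-fold. Sinusoidal endothelial markers, of the cell type that makes the ligand, gave a median log2 change of 0.107 over 12 genes. Of these 0 were called, where 0.399% of all genes were. Their list means were 8.27 to 9.17 on HNF6KO arrays and 8.27 to 9.13 on WT arrays.

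Iron uptake gave the largest difference among the 9 genes. Tfrc (Entrez 22042), the receptor through which most cells take up transferrin-bound iron, had 8.25, 8.19, 8.86 and 8.67 on HNF6KO arrays 1 to 4 against 7.58, 7.24, 8.10 and 8.22 on WT arrays 1 to 4. Both groups were higher on arrays 3 and 4, and within each pair of arrays every HNF6KO array was above every WT array. Fth1 had the same pattern, and for Tfr2 every HNF6KO array was below every WT array within each pair. The share of all genes with such a pattern within pairs was not computed, so these cases have no background to be read against. The means were 8.49 ± 0.32 in HNF6KO and 7.79 ± 0.46 in WT (SD, n = 4 each), a log2 change of 0.71 ± 0.23 (SE) or 1.63-fold, with an interval of 1.13-fold to 2.35-fold. This did not pass in limma without the split (adjusted p = 0.344). With the split in the fit the log2 change kept its size, its SE was 0.089, and it passed (limma, adjusted p = 0.0101). The difference was 0.81 on arrays 1 and 2 and 0.60 on arrays 3 and 4. Kupffer markers also rank arrays 3 and 4 above arrays 1 and 2 in both groups, and their median difference between HNF6KO and WT was -0.093 on arrays 1 and 2 but 0.36 on arrays 3 and 4. The part of Kupffer cell content in the Tfrc difference was not tested. The call with the split held without any single one of the 8 arrays, at log2 changes of 0.62 to 0.77 (limma, adjusted p = 0.0142 to 0.0462). Without the split, log2 changes were 0.53 to 0.85 with 1 array left out, and none passed (limma, adjusted p = 0.236 to 0.655). The split was taken from how the arrays themselves separate, not from the labels.

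**Figure D2:**
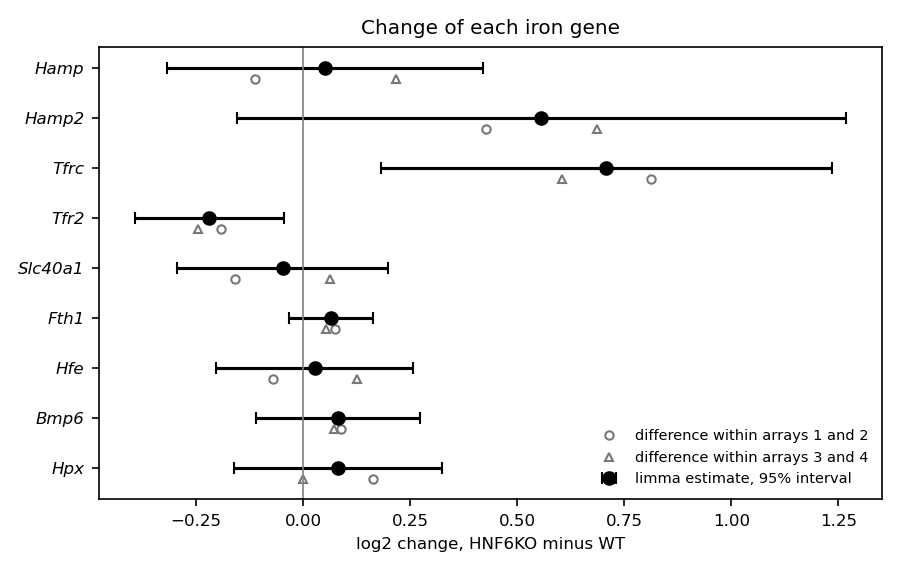
Log2 change of each iron gene (HNF6KO minus WT) with its 95% interval from limma in black, and in grey the plain difference of means within arrays 1 and 2 and within arrays 3 and 4. The interval leaves out 0 for Tfrc and Tfr2, and Hamp, Slc40a1, Hfe and Hpx differ in sign between the pairs of arrays.

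Storage, export and haem binding differed by little. Fth1 (Entrez 14319), the ferritin subunit that oxidises iron for storage, had 13.39, 13.42, 13.45 and 13.45 on HNF6KO arrays 1 to 4 and 13.33, 13.34, 13.41 and 13.38 on WT arrays 1 to 4. The log2 change was 0.064 ± 0.043 (SE, limma, adjusted p = 0.722), or 1.05-fold with an interval of 0.977 to 1.12. Its values lie near the top of the scale, where a bright probe set can understate a change. Ferritin is also set by translation, which these arrays do not measure.

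Slc40a1 (Entrez 53945), the iron exporter ferroportin, had 10.20, 10.43, 10.65 and 10.65 on HNF6KO arrays 1 to 4 and 10.50, 10.44, 10.72 and 10.46 on WT arrays 1 to 4. The HNF6KO arrays spread wider and enclosed all but the highest WT value. The log2 change was -0.048 ± 0.11 (SE, limma, adjusted p = 0.951), -0.16 within arrays 1 and 2 and 0.062 within arrays 3 and 4. Kupffer cells are known to carry much ferroportin. Slc40a1 and the mean of Kupffer markers were both higher on HNF6KO arrays 3 and 4 than on HNF6KO arrays 1 and 2. Among WT arrays Slc40a1 was highest on array 3. The Kupffer mean was highest on WT array 4 (8.84), where Slc40a1 was 10.46. The part of Kupffer cell content was not tested.

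Hpx (Entrez 15458), a plasma protein that binds free haem and an acute phase protein, had 13.67, 14.09, 13.86 and 13.71 on HNF6KO arrays 1 to 4 and 13.71, 13.72, 13.61 and 13.97 on WT arrays 1 to 4. The highest value of each group was on HNF6KO array 2 and WT array 4. The log2 change was 0.081 ± 0.11 (SE, limma, adjusted p = 0.887), and -0.0039 without HNF6KO array 2. Its values are brighter than those of Fth1, so the same limit of a bright probe set applies, and 14.09 was the highest value of any gene on HNF6KO array 2.

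HNF6KO array 2 and WT array 4 also led their groups for the acute phase list, and the hepcidin genes did not follow it alike in both groups. The mean of 15 acute phase genes was 10.63, 11.70, 11.38 and 10.77 on HNF6KO arrays 1 to 4 and 10.51, 10.81, 10.63 and 12.11 on WT arrays 1 to 4. Not every gene of the list peaked on these arrays. Orm3 had 10.06, 8.69, 10.08 and 9.83 on HNF6KO arrays 1 to 4. Lbp, and Saa3 and Cebpd, named after their values were seen, were highest of their group on HNF6KO array 3 (11.10, 8.97 and 7.13). Among WT arrays Cebpd was highest on array 3 (7.24). Saa2, a serum amyloid A gene chosen after its values were seen, had 9.34, 13.28, 11.10 and 9.10 on HNF6KO arrays 1 to 4 and 8.49, 9.48, 8.77 and 13.40 on WT arrays 1 to 4. Lcn2, an iron siderophore-binding acute phase protein chosen in the same way, had 8.37, 12.24, 11.94 and 9.70 on HNF6KO arrays 1 to 4 and 8.80, 8.80, 9.63 and 13.31 on WT arrays 1 to 4. Hamp was the highest of its group on HNF6KO array 2 and the lowest of its group on WT array 4, and so was Hamp2. Inflammation is known to raise hepcidin. The low hepcidin of WT array 4 stood beside the highest acute phase mean of the 8 arrays, and the part of inflammation in these values was not tested. Of the 15 genes 0 were called in limma, where 0.399% of all genes were. At an unadjusted p of 0.05, 0 were higher and 2 lower (4.3% and 5.21% of all genes), and the median log2 change was 0.038. The lower pair were Crp, C-reactive protein (-0.68 ± 0.13, adjusted p = 0.0888, and 0.0474 with the split as a term, a call kept in 1 of 8 fits that left out 1 array, the fit without HNF6KO array 2), and Lbp, which binds lipopolysaccharide (-0.61 ± 0.26, adjusted p = 0.500). Orm2 and Orm3, which encode orosomucoids, had log2 changes of 1.18 ± 0.91 (SE, adjusted p = 0.769) and 0.68 ± 0.54 (SE, adjusted p = 0.775).

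**Figure D3:**
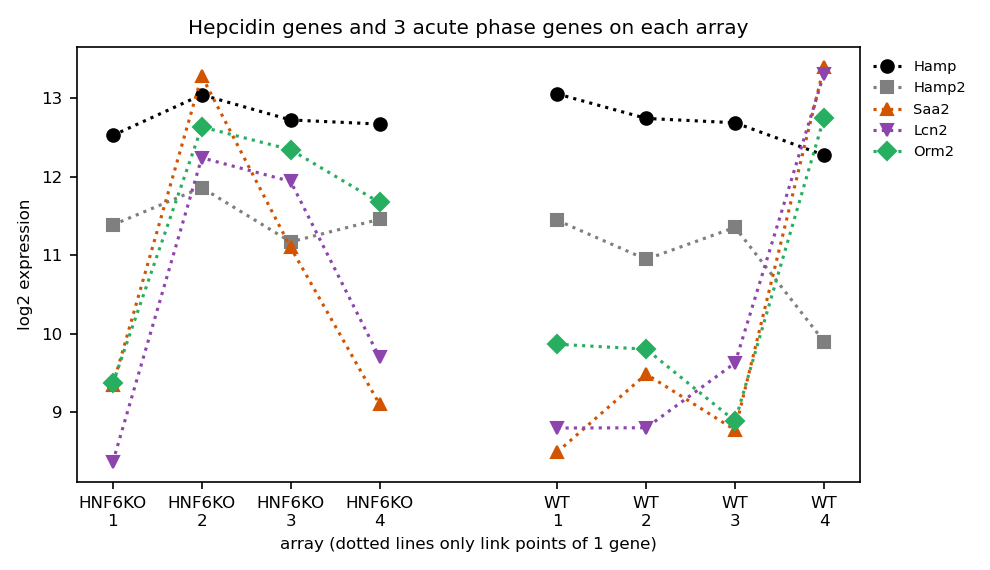
Log2 expression of Hamp, Hamp2 and 3 acute phase genes (Saa2, Lcn2 and Orm2) on each array, HNF6KO arrays left and WT arrays right, with dotted lines that only link the points of 1 gene. The 3 acute phase genes shown peak on HNF6KO array 2 and WT array 4, where Hamp is at 13.04 and 12.27. Not all acute phase genes do, and Orm3, not shown, is the lowest of its group on HNF6KO array 2 (8.69).

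The known regulators of hepcidin gave no call over the 8 arrays. Of 25 measured genes of this list 0 passed in limma, where 0.399% of all genes did. At an unadjusted p of 0.05, 0 were higher and 5 lower, beside 4.3% and 5.21% of all genes. The median log2 change was -0.11, with 18 below 0 and 7 above 0. Over all genes 11222 of 19540 were below 0. Groups that did not overlap were seen for 3, all lower in HNF6KO (3.21% of all genes were). Tmprss6, the liver protease that cleaves hemojuvelin and so restrains hepcidin, had 10.83, 10.56, 10.75 and 10.77 on HNF6KO arrays 1 to 4 against 10.97, 10.93, 11.02 and 10.87 on WT arrays 1 to 4. Its log2 change was -0.22 ± 0.067 (SE, limma, adjusted p = 0.307). Neo1, the receptor neogenin that binds hemojuvelin (-0.28 ± 0.095, adjusted p = 0.360), and Smad4, the shared SMAD of BMP signalling (-0.18 ± 0.061, adjusted p = 0.379), likewise had all HNF6KO arrays below all WT arrays. Atoh8, a factor that responds to iron and acts on hepcidin (-0.33 ± 0.12, adjusted p = 0.426), overlapped. Id1 and Smad7, targets of BMP signalling in liver that are named here after their values were seen, had log2 changes of 0.042 ± 0.092 (SE, adjusted p = 0.947) and 3.56e-04 ± 0.15 (SE, adjusted p = 0.999). Both changed sign between the pairs of arrays. Id1 lay at -0.13 within arrays 1 and 2 and 0.21 within arrays 3 and 4, and Smad7 at -0.26 and 0.26. Smad6 of the same list, also named after its values were seen, lay at -0.16 ± 0.10 (SE, limma, adjusted p = 0.691).

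The iron transport and storage list gave no call on the deposited values with no added term or weights. Of 20 measured, 0 passed in limma, where 0.399% of all genes did. At an unadjusted p of 0.05, 3 were higher and 2 lower, beside 4.3% and 5.21% of all genes, and the median log2 change was 0.040. Fbxl5, the ubiquitin ligase subunit that senses iron and directs iron regulatory proteins to breakdown, had 8.50, 8.57, 8.67 and 8.74 on HNF6KO arrays 1 to 4 against 8.26, 8.21, 8.47 and 8.21 on WT arrays 1 to 4. Every HNF6KO array was above every WT array, as for 4 of the 20 genes (with Ireb2, Steap3 and Heph) and for 2.45% of all genes. Heph, a ferroxidase named after its values were seen, differed by only 0.053 on the log2 scale (limma, adjusted p = 0.769). The log2 change of Fbxl5 was 0.33 ± 0.077 (SE) or 1.26-fold (limma, adjusted p = 0.161), and it passed after quantile normalization (adjusted p = 0.0495), with array weights (0.0425) and with the split as a term (0.0479). The call with the split was lost in 8 of 8 fits that left out 1 array (limma, adjusted p = 0.0561 to 0.14). Ireb2, the gene of iron regulatory protein 2, had 10.40, 10.46, 10.47 and 10.65 on HNF6KO arrays 1 to 4 and 10.29, 10.22, 10.39 and 10.25 on WT arrays 1 to 4, a log2 change of 0.21 ± 0.066 (SE, adjusted p = 0.325, and 0.147 with the split as a term). Steap3, a reductase that converts endosomal iron, lay at 0.22 ± 0.063 (adjusted p = 0.281), with all HNF6KO arrays above all WT arrays. Epas1, which encodes a hypoxia-inducible factor and has an iron-responsive element in its message, had 10.56, 10.59, 10.74 and 10.56 on HNF6KO arrays 1 to 4 against 10.83, 10.77, 11.02 and 10.88 on WT arrays 1 to 4 (log2 change -0.26 ± 0.068, SE, adjusted p = 0.211). Its groups did not overlap, and it missed the threshold with the split as a term (limma, adjusted p = 0.0776).

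**Figure D4:**
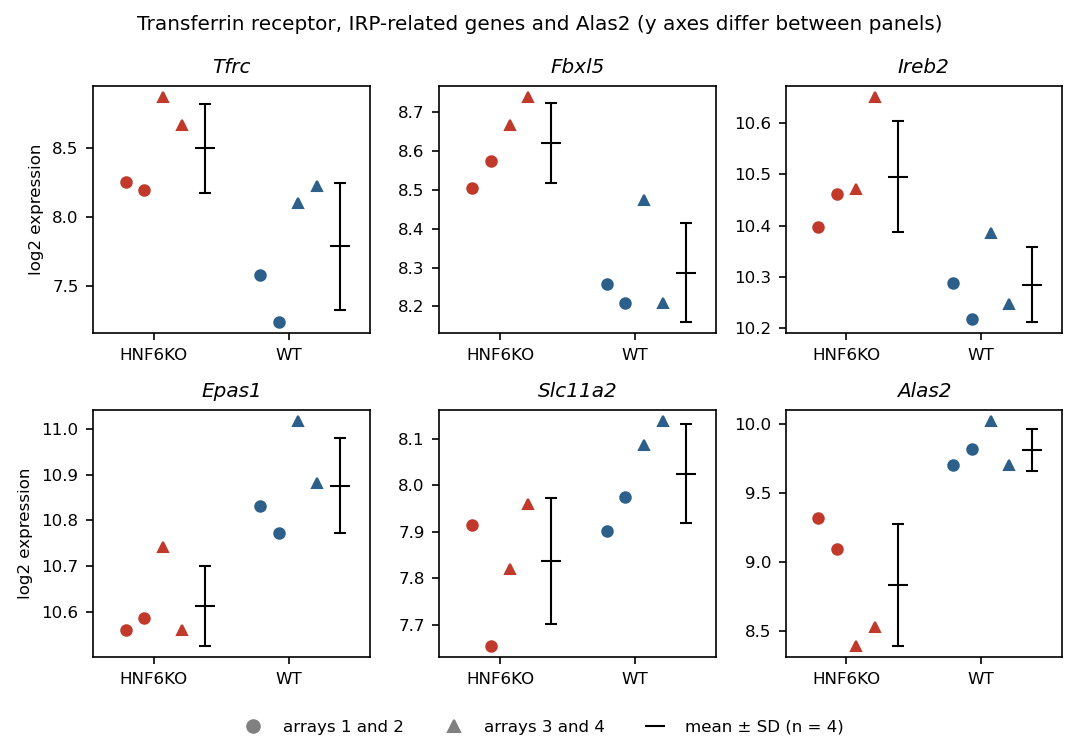
Log2 expression of Tfrc, of Fbxl5, Ireb2, Epas1 and Slc11a2 from the transport and storage list, and of Alas2 on each array, HNF6KO left and WT right, with the mean ± SD (n = 4). Tfrc, Fbxl5 and Ireb2 have higher means in HNF6KO, while Epas1, Slc11a2 and Alas2 have lower means, and none of the 6 passed in limma on the deposited values of all 8 arrays with no added term, block or weights.

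Slc11a2, the importer of ferrous iron, is shown there with a log2 change of -0.19 ± 0.080 (SE, limma, adjusted p = 0.505) and was chosen after its values were seen. Alas2, the erythroid enzyme that starts haem synthesis and another message with an iron-responsive element, had 9.32, 9.09, 8.39 and 8.53 on HNF6KO arrays 1 to 4 against 9.70, 9.82, 10.02 and 9.70 on WT arrays 1 to 4. Its log2 change was -0.98 ± 0.19 (SE, limma, adjusted p = 0.0925), and it passed with the split as a term (adjusted p = 0.0296), a call kept in 3 of 8 fits that left out 1 array (without HNF6KO array 1 or 2 or WT array 1). Without the split it passed with array weights (adjusted p = 0.0108), within arrays 3 and 4 (0.018) and without HNF6KO array 1 (0.0416). Alas2 marks erythroid cells, and of the other 3 measured erythroid markers Slc4a1, Klf1 and Epb42 had log2 changes of -0.033, 0.070 and -0.098, with adjusted p of 0.532 or above. Epb42 was lower on all 4 HNF6KO arrays than on any WT array, as were 3.21% of all genes. Its mean level was 5.53, below the 40th percentile of all genes (6.47). Means of the 4 measured markers, Alas2 included, were 6.90 to 7.26 on HNF6KO arrays and 7.30 to 7.38 on WT arrays. Alas2 had by far the largest change of the 4, and a mean without it was not computed. The groups overlapped for Slc4a1 and Klf1, so the list means do not show a shift shared by the markers. The 6 other erythroid markers of the list, globins included, were not analysed here.

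Haem and haemoglobin clearance gave no call over the 8 arrays. Of 14 measured genes 0 passed in limma, where 0.399% of all genes did. At an unadjusted p of 0.05, 1 was higher and 0 lower, beside 4.3% and 5.21% of all genes, and the median log2 change was -0.027. Flvcr2, a membrane transporter related to the haem exporter, had the smallest p, with a log2 change of 0.28 ± 0.091 (SE, adjusted p = 0.337). Bach1, the repressor of the haem oxygenase gene, lay at -0.10 ± 0.069 (SE, adjusted p = 0.714), Slc46a1, which carries folate and haem, at -0.10 ± 0.074 (adjusted p = 0.745), and Hmox2, the constitutive haem oxygenase, at -0.12 ± 0.090 (adjusted p = 0.753). Hp, haptoglobin, which binds free haemoglobin, and Hmox1, the inducible haem oxygenase, are named after their values were seen, at -0.052 ± 0.14 (SE, adjusted p = 0.959) and 0.016 ± 0.17 (SE, adjusted p = 0.989).

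**Figure D5:**
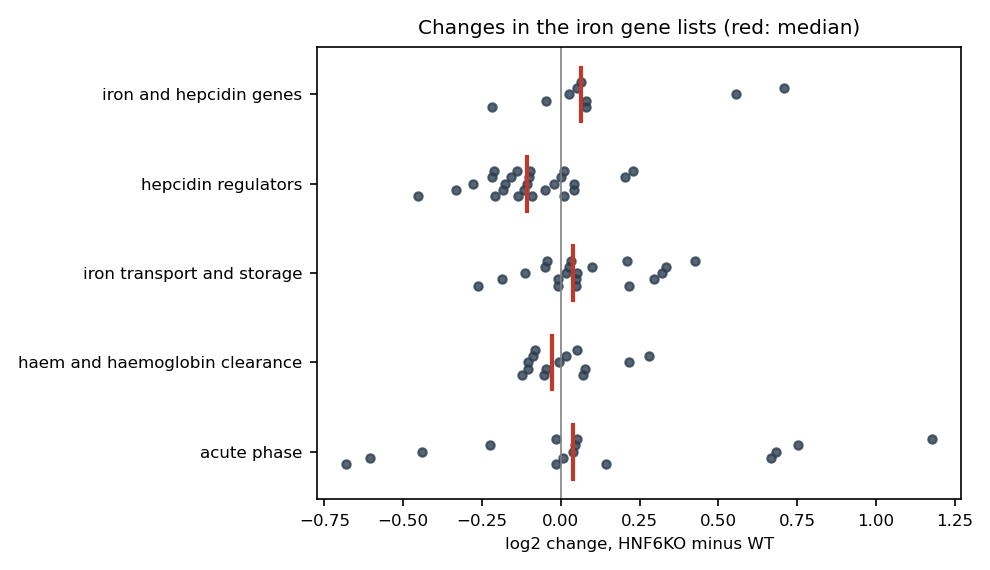
Log2 change (HNF6KO minus WT) of each measured gene in the iron set and the 4 related lists, 1 point per gene, with the list median in red. The medians run from -0.11 for hepcidin regulators to 0.064 for the iron and hepcidin genes, and no point passed the threshold in limma on the deposited values of all 8 arrays with no added term.

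Markers of other cell types gave no call either. Of 12 Kupffer, 12 sinusoidal endothelial, 10 stellate, 5 cholangiocyte, 10 lymphocyte and neutrophil, 10 hepatocyte and 4 erythroid markers, 0 passed in limma. Over all genes 0.399% passed. At an unadjusted p of 0.05, 1 was higher (Cps1, of hepatocytes) and 3 were lower (Alas2, the stellate marker Ngfr and the lymphocyte marker Cd3d), beside 4.3% and 5.21% of all genes. The Kupffer list, whose cells recycle the iron of red cells, had all 12 log2 changes above 0, from 0.019 to 0.26, with adjusted p of 0.909 or above. The shared sign came from arrays 3 and 4, where all 12 differences were above 0, while 10 of the 12 were below 0 on arrays 1 and 2. Its median was 0.10, and list means ran from 7.68 to 9.26 on HNF6KO arrays and from 7.63 to 8.84 on WT arrays.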

How the data were processed

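Total RNA of 8 mouse liver samples was extracted with Trizol and labelled with biotin, per the labels' protocols. The authors deposited 1 log2 value per probe set and array. That the scale is log2 is read from the values, while no source used here says how the values were background-corrected, normalized or summarised, so a shift of a whole array cannot be undone. Of 22725 probe sets, 21113 had 1 gene symbol, 43 several and 1569 none, and the last 2 kinds were left out. The brightest probe set by mean stood for a gene, which gave 19540 genes.

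Groups of 4 HNF6KO and 4 WT arrays were compared by limma 3.58.1 under R 4.3.3 (lmFit, eBayes, Benjamini-Hochberg over all genes, threshold 0.05). Log2 changes are HNF6KO minus WT, and errors marked SE are moderated. The step was tested on simulated data. The number of arrays limits the precision. Genes named come from the 10 chosen, Onecut1, the 5 most like Hamp and the smallest p of each list. Each pathway list gave 4 and each marker list 2, and not every marker picked this way is named. Slc4a1 and Klf1 complete the 4 measured erythroid markers, and other genes are marked as chosen later. Members and lists were chosen with earlier results of these data known. Of 150 list genes, 137 were measured. Promoter windows are RefSeq sequence, used apart from the array values. Alternatives were other normalizations, a filter at the 40th percentile, other variance models, array weights, the mean of probe sets, a block, the split of arrays, other thresholds and arrays left out.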

Additional observations from a re-analysis of the deposited data

Results flagged for a closer look

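In each group of 4 arrays, the gap of an extreme array to its nearest neighbour was set against the whole range. This was done in both groups for the 45 genes picked by the rule for named genes, whether named above or not. The gap passed Dixon's 95% critical value in 10 of 90 groups, and chance gives about 1 in 20. For 2 of the 9 iron genes an array stood apart. Hfe was at 9.01 on HNF6KO array 1, against 9.42 to 9.48 on the other HNF6KO arrays. Tfr2 was at 10.53 on WT array 3, against 10.68 to 10.70 on the other WT arrays.

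Among genes of the related lists, Epas1 stood apart at 10.74 on HNF6KO array 3, Neo1 at 8.92 on WT array 3, Steap3 at 8.11 on WT array 2 and Bach1 at 9.27 on WT array 1. Among markers and genes alike to Hamp, Ngfr stood apart at 7.51 on HNF6KO array 3, Cd3d at 5.57 on HNF6KO array 4, Hint1 at 10.59 on HNF6KO array 2 and Ly6g at 4.77 on WT array 1. The causes were not tested.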

How the results depend on the processing

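The log2 change of each of the 9 iron genes was computed under 20 alternatives, 180 values in all. Of these, 165 kept the direction and the side of the threshold, 2 passed it and 13 changed sign, all of genes that never passed. Hamp2, Tfrc, Tfr2, Fth1 and Bmp6 kept their sign in every alternative. Tfrc passed with the split of arrays as a term and with the array number as a replicate block (limma log2 change 0.71 in both, adjusted p = 0.0101 and 0.0267), so the count of iron genes called was 1 in both fits and 0 as reported. With the split and 1 array left out, an alternative chosen after seeing the data, the count stayed at 1 and the log2 change of Tfrc lay between 0.62 and 0.77, against 0.53 to 0.85 without the split. Deviations from the group means of arrays with the same number correlated at 0.439, 0.167, 0.506 and 0.0233. Arrays of unlike number on the same side of the split correlated at 0.240, 0.351, 0.445 and 0.317. The ranges overlap, so these values cannot tell whether the number pairs the arrays. Arrays on opposite sides of the split correlated at -0.50 to 0.0248. The highest of these, for HNF6KO array 2 with WT array 4, was no lower than the 0.0233 of the arrays numbered 4. With the array number as a block, 125 genes were called.

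Hamp lay at -0.114 within arrays 1 and 2, between -0.087 and 0.17 with 1 array left out, and at -0.188 without HNF6KO array 2 and WT array 4, a pair chosen after seeing the data. Slc40a1 lay at 0.0625 with array weights, 0.0622 within arrays 3 and 4, and between -0.11 and 0.045 with 1 array left out. Hfe lay at -0.0708 within arrays 1 and 2 and between -0.019 and 0.14 with 1 array left out. Hpx lay at -7.46e-04 within arrays 3 and 4 and between -0.0039 and 0.15 with 1 array left out. The causes were not tested.

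The count of 78 genes over the whole table became 202 with array weights, 245 with the split, 22 within arrays 1 and 2, 36 without HNF6KO array 2 and WT array 4, 14 and 162 at thresholds of 0.01 and 0.1, and 16 to 79 with 1 array left out. It was 27 and 30 without HNF6KO arrays 3 and 4, and 26, 16, 28 and 40 without WT arrays 1 to 4. In the transport and storage list 1 gene (Fbxl5) passed after quantile normalization, with array weights and with the split. In the acute phase list 1 (Crp) passed with the split. In the marker lists 1 (Alas2) passed with array weights, with the split, within arrays 3 and 4 and without HNF6KO array 1, so 0 to 1 with 1 array left out. Onecut1 lost its call without HNF6KO array 3 or 4, without WT array 1, 3 or 4, without HNF6KO array 2 and WT array 4 together, and within arrays 1 and 2 (limma, adjusted p = 0.0633 to 0.171). With the split it lost its call without HNF6KO array 3 (0.0532) or WT array 3 (0.0604). With the split and 1 array left out, Flvcr2 passed without HNF6KO array 1 (0.0453) and Atoh8 without WT array 4 (0.0434).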
